A study of Mus musculus with 12 samples.

Results

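The thermogenic adipocyte markers are 8 genes by which brown and beige fat cells are recognised: Ucp1, Cidea, Dio2, Ppargc1a, Prdm16, Cox7a1, Cox8b and Elovl3. They were chosen by name, by matching the gene symbol in the array annotation, and not by a rule on their values. Earlier results of these data were known when they were chosen. All 8 were found among 19480 named genes on the array, each with 1 transcript cluster, which is the set of probes that reports 1 transcript unit. The cells were 3T3-L1, a mouse preadipocyte line that fills with lipid under a hormone cocktail and is used as a model of white adipocytes. Arrays were run on 12 RNA samples taken at day 8 of differentiation, 3 for each of 4 treatments, 1 each from passage 6, 7 and 8 of the line. Control cells received ethanol and DMSO. The other groups received alpha-linolenic acid (ALA), the plant omega-3 fatty acid, at 50 µM, a delta-6-desaturase inhibitor at 5 µM, or both. The delta-6-desaturase starts the conversion of ALA to longer and more unsaturated fatty acids. In all groups treatment ran through the whole differentiation, and the maintenance medium held 5 µg/ml insulin. The labels mention 2% fatty-acid-free albumin for the ALA medium only, and they do not say whether carrier and solvents were matched between groups. The passages belong to 1 cell line, so every p-value below measures the spread between cultures of that line.

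Brown and beige adipocytes turn chemical energy into heat. UCP1 lets protons return across the inner mitochondrial membrane without making ATP. In living fat this programme is switched on mainly by noradrenaline, which acts through beta-adrenergic receptors, cyclic AMP and protein kinase A. PGC-1alpha, encoded by Ppargc1a, drives mitochondrial gene expression, and PRDM16 directs cells toward a brown or beige identity. DIO2 makes active thyroid hormone inside the cell, CIDEA is a lipid droplet protein, ELOVL3 lengthens saturated and monounsaturated fatty acids, and COX7A1 and COX8B are cytochrome c oxidase subunits of the isoforms found in heart, muscle and brown fat. The labels name no adrenergic agonist, thyroid hormone or cold exposure in any group.

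The cells carried the signals of adipocytes. All 11 measured genes of a list of 12 adipocyte markers lay above the array median on all 12 arrays, with mean log2 signals of 13.08 for Adipoq (adiponectin), 12.94 for Fabp4 (fatty acid binding protein), 11.74 for Pparg (the master regulator of adipogenesis) and 10.95 for Plin1 (a lipid droplet coat protein). Signals of preadipocytes were present too. Of 5 measured preadipocyte markers 4 had a mean above the array median, among them Dlk1 at 11.42, Pdgfrb at 10.33 and Thy1 at 9.65. Cd34, at 5.32, lay below it. Of other cell types, 0 of 6 endothelial, 1 of 6 macrophage and 4 of 13 muscle markers had a mean above the array median. Array medians ran from 6.14 to 6.27. The ALA array of passage 7 stood apart, correlating with each of the others at 0.976 to 0.987, whereas the other 11 correlated among themselves at 0.989 to 0.994. Differences between treatments of the 8 genes that use it, and the counts of gene lists, are also given without it in some cases. These are values that moved by over 1.5 times, turned or crossed an unadjusted p of 0.05. Shares of all clusters at an unadjusted p or without overlap come from all 12 arrays and are not given without it.

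Most of the thermogenic markers sat low on these arrays. Signals are log2 values, and each was set against the median of all clusters on the same array. Relative to it Ucp1 averaged -2.72 (from -3.09 to -2.23 over 12 arrays), Dio2 lay at -2.28, Elovl3 at -1.85, Prdm16 at -1.82 and Cidea at -1.10. All 5 were below the median on every array. Above it on all 12 arrays were Cox7a1 at 1.80 (1.35 to 2.19) and Ppargc1a at 1.40 (1.01 to 1.68). Cox8b was at 0.20, above the median on 11 arrays and below it on the array with both agents at passage 7. Probes differ in brightness, so these positions say how far a cluster stood from the middle of its array and do not rank the transcripts by abundance.

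The deposited values carry no detection call. Olfactory receptor genes, which serve in the nose, were taken after the values were seen as a picture of the low end of the scale. Their 1091 clusters had a median of 3.47, with the 5th to 95th percentiles at 2.43 and 5.14. Of them 49.3% were at or above the mean of Ucp1, 32.4% at or above Dio2, 19.7% at or above Elovl3, 18.8% at or above Prdm16 and 5.5% at or above Cidea. The shares were 0.0917% for Cox8b, which is 1 cluster, and 0% for Ppargc1a and Cox7a1. The mean signals of Ucp1, Dio2, Elovl3 and Prdm16 thus lay within the 5th to 95th percentiles of clusters for genes of another tissue. The mean of Cidea lay near the upper end of that range. On single arrays Elovl3 reached 5.38, with both agents at passage 6, which is above the 95th percentile. By these means a true level for Ucp1, Dio2, Elovl3 and Prdm16 cannot be told from background, and differences between their signals have to be read with that limit. Cidea stands at the edge of it. Genes of the lists below with means inside that range, such as Elovl2 at 4.61 and Gatm at 4.63, fall under the same limit.

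**Figure D1:**
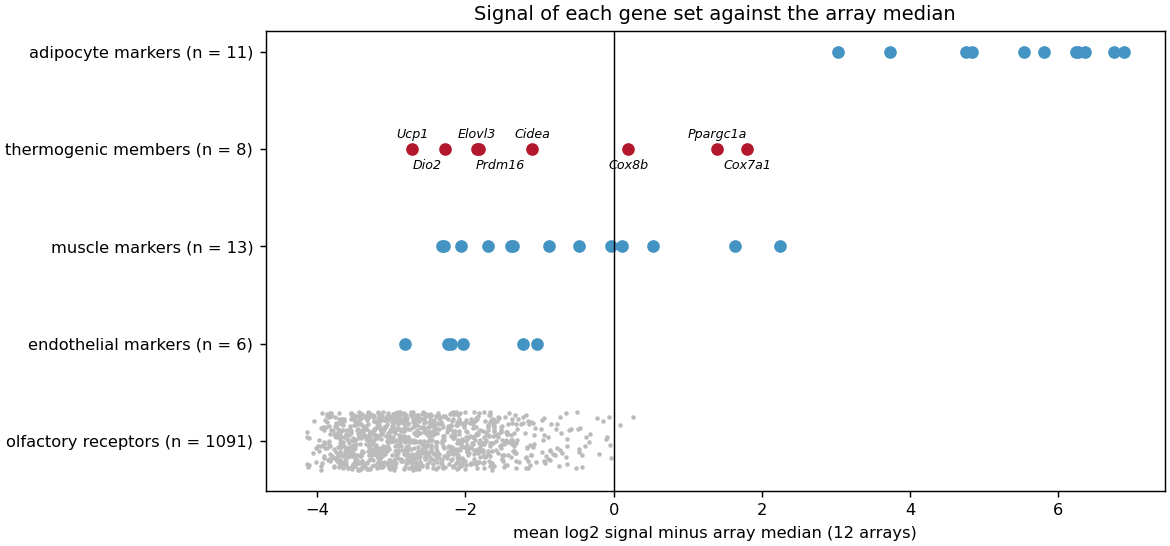
Mean log2 signal minus the array median over 12 arrays (x axis) for genes of 5 sets (y axis), 1 point per gene, with the vertical line at the array median. Of the thermogenic markers, Ppargc1a, Cox7a1 and Cox8b lie to the right of the line, Ucp1 lies at -2.72 among the olfactory receptors, and all 11 adipocyte markers lie to the right of every thermogenic marker.

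Protein kinase A acts on genes through cyclic AMP response elements, and PPARs and the thyroid hormone receptor bind sites built from a nuclear receptor half-site. Promoter sequences are therefore given for Ucp1, Dio2 and Cox7a1, the genes whose unadjusted p was under 0.05 in a comparison of 2 treatments. The 250 bases before the annotated start come from RefSeq on build GRCm38.p6, which held 6 of the 8 genes. Capitals mark the cyclic AMP response element TGACGTCA or its shorter form TGACG, and the nuclear receptor half-site AGGTCA, each searched on both strands. Ucp1 is at chr8:83290098-83290347 on the plus strand, Dio2 at chr12:90739039-90739288 on the minus strand and Cox7a1 at chr7:30183921-30184170 on the plus strand.
Ucp1: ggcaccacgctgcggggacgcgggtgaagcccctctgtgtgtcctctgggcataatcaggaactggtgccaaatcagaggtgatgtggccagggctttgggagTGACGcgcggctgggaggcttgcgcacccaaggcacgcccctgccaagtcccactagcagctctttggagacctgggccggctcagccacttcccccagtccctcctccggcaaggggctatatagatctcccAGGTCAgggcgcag
Dio2: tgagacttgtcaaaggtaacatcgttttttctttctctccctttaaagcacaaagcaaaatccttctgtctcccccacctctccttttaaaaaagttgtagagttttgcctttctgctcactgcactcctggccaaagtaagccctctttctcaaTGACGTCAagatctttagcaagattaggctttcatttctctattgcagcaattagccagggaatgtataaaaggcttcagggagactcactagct
Cox7a1: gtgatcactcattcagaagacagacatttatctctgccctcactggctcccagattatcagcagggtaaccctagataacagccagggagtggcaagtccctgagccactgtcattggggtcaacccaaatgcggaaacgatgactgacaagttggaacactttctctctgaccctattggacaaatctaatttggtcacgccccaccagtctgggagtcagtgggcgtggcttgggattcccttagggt
The Dio2 window held the full TGACGTCA element, which starts 95 bases before the annotated start and contains TGACG on both strands. It also held a TATAAA, not capitalised, that starts 30 bases before the annotated start. The Ucp1 window held TGACG at 147 bases and AGGTCA at 14 bases before its start. Of the windows not printed, that of Ppargc1a held TGACG at 49 bases. The windows of Cox7a1, Cox8b and Prdm16 held none of these letters. Among 32851 promoter windows of the same length, 17.8% held TGACG, 1.55% TGACGTCA, 14% AGGTCA and 12.4% TATAAA. A match is a run of letters and not a measured binding site.

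In no comparison of treatments did any of the 8 genes pass the adjusted threshold of 0.05 in limma, which was fitted to all 22104 clusters with Benjamini-Hochberg adjustment. The share of all clusters that passed it was 0% for ALA against control, 0% for inhibitor against control, 0% for both agents against ALA, 0% for both agents against the inhibitor and 0% for the interaction. The threshold named in the series design, an unadjusted p of 0.01, was met by 0 of 8 members in each of these, beside 0.525% of all clusters for ALA against control, 0.855% for inhibitor against control, 1.47% for both against ALA, 0.728% for both against inhibitor and 0.638% for the interaction. The sections that follow therefore give values and intervals, and use an unadjusted p under 0.05 only to say where the largest differences lay relative to the spread.

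Ucp1, the proton channel of brown fat, carried the largest difference with ALA relative to its spread. Its log2 signal was 3.44, 3.33 and 3.10 in control cells of passages 6, 7 and 8, and 3.50, 4.04 and 3.54 with ALA. The lowest ALA array was just above the highest control array, and the array of passage 7 stood highest. The means were 3.69 ± 0.30 with ALA and 3.29 ± 0.17 in control (SD, n = 3), a log2 difference of 0.40 (SE 0.17, 95% interval 0.04 to 0.76). The limma p was 0.0326 unadjusted and 1 adjusted. Without the ALA array of passage 7 the difference was 0.23 (limma unadjusted p = 0.16), and with array weights it was 0.25 (unadjusted p = 0.115).

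With the inhibitor alone Ucp1 measured 3.30, 3.60 and 3.67, and with both agents 3.42, 3.56 and 3.25. These arrays overlapped those of control and of each other. The inhibitor difference without ALA was 0.23 (SE 0.17), and in ALA-treated cells it was -0.29 (limma unadjusted p = 0.112), or -0.11 without the ALA array of passage 7 (unadjusted p = 0.475). The interaction, which is the ALA difference in the presence of the inhibitor minus that in its absence, was -0.52 for Ucp1 (SE 0.24, 95% interval -1.03 to -0.0045). Its limma p was 0.0483 unadjusted and 1 adjusted, and without the ALA array of passage 7 the interaction was -0.34 (unadjusted p = 0.118). The ALA comparison, the comparison within ALA-treated cells and the interaction share the ALA arrays, so these values are not separate evidence.

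Dio2, the deiodinase that activates thyroid hormone, had its lower group means in the cells given inhibitor, 3.79 ± 0.10 with it alone against 4.02 ± 0.25 in control. Control arrays read 3.74, 4.23 and 4.10 and ALA arrays 4.31, 4.09 and 3.96. Arrays with the inhibitor read 3.91, 3.75 and 3.72, and arrays with both agents 3.89, 3.76 and 3.57. Each array with both agents was below each ALA array. The mean was 3.74 ± 0.16 with both and 4.12 ± 0.17 with ALA, a log2 difference of -0.38 (SE 0.15, 95% interval -0.70 to -0.06), with a limma p of 0.0242 unadjusted and 0.67 adjusted. Without the ALA array of passage 7 it was -0.40 (limma unadjusted p = 0.036). It was -0.29 without the ALA array of passage 6 (unadjusted p = 0.102), and -0.32 after quantile normalization (unadjusted p = 0.0635). Against control the inhibitor differed by -0.23 (unadjusted p = 0.143), with overlapping arrays.

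Cox7a1, the cytochrome c oxidase subunit of heart, muscle and brown fat, lay well above the array median in every group. Control arrays read 8.24, 8.02 and 8.09, ALA arrays 8.37, 8.21 and 7.98, inhibitor arrays 7.53, 7.99 and 8.05, and arrays with both agents 7.89, 7.71 and 7.90. All arrays with both agents were below all ALA arrays. The means of these groups were 7.83 ± 0.11 and 8.18 ± 0.20, a log2 difference of -0.35 (SE 0.15, 95% interval -0.69 to -0.02), with a limma p of 0.0382 unadjusted and 0.684 adjusted. Without the ALA array of passage 7 the difference was -0.34 (limma unadjusted p = 0.0711). With a passage left out of every group it was -0.29 without passage 6 (unadjusted p = 0.0979) and -0.28 without passage 7 (unadjusted p = 0.206). Without passage 8 it was -0.49 (unadjusted p = 0.0312). After median centring it was -0.32 (unadjusted p = 0.0641), and after quantile normalization -0.39 (unadjusted p = 0.0228). The inhibitor against control gave -0.25 (unadjusted p = 0.123), in which the passage 6 array of the inhibitor was the lowest of all 12 arrays and that of passage 8 lay within the range of control.

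For both agents against ALA the deviations of same-passage arrays correlated at 0.163, 0.163 and 0.235 for passages 6, 7 and 8. Over all pairs of groups such correlations ran from -0.045 to 0.459, the highest for control and ALA at passage 8. Passage was therefore also used as a replicate block, here as in the other comparisons of treatments. Under the block the limma p was 0.0269 for Dio2 (adjusted p = 0.433) and 0.0523 for Cox7a1 (adjusted p = 0.475). Some marker lists of cell types also leaned lower in this comparison. Of 13 muscle markers 10 were lower with both agents (5 were higher after quantile normalization or centring) and 4 had an unadjusted p under 0.05 (7.27% of all clusters did), among them Ckm (muscle creatine kinase) at -0.56 and the muscle regulator Myog at -0.55. The muscle list without the ALA array of passage 7 had 9 lower and 2 at that p, Ckm at -0.55 and Myog at -0.46. The mean of the muscle list ran from 5.59 to 5.83 over the ALA arrays and from 5.52 to 5.54 over the arrays with both agents. All 5 measured preadipocyte markers were lower, or all but 1 after quantile normalization, after centring or without that array, with list means of 8.86 to 9.17 and 8.66 to 8.93 in the same order. The 5 preadipocyte markers were also all lower with the inhibitor than in control. Of 11 adipocyte markers 7 were lower with both agents than with ALA and 4 higher. After quantile normalization 2 were higher, after centring 5, and without the ALA array of passage 7 only 1. Of 6 endothelial markers 3 were higher, or 4 after quantile normalization. Of 6 macrophage markers 2 were higher, or 5 after quantile normalization or without that array. The cultures were of 1 preadipocyte line, so the muscle, endothelial and macrophage lists are read here as genes and not as such cells. The part of preadipocytes and adipocytes in the Dio2 and Cox7a1 values was not tested. In cultures like these, fewer cells with a transcript and less transcript per cell cannot be told apart.

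Ppargc1a, the mitochondrial coactivator, read 7.51, 7.67 and 7.69 in control, 7.75, 7.95 and 7.61 with ALA, 7.69, 7.18 and 7.62 with the inhibitor, and 7.57, 7.24 and 7.62 with both agents. The arrays of passage 7 with inhibitor, with or without ALA, were the lowest of the 12, and the ALA array of that passage was the highest. The differences were 0.15 for ALA against control, -0.13 for inhibitor against control and -0.30 for both against ALA (limma unadjusted p = 0.0827), and the arrays overlapped in each. The Ppargc1a difference without the ALA array of passage 7 was 0.06 for ALA against control (unadjusted p = 0.738) and -0.21 for both against ALA (unadjusted p = 0.242).

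Cox8b, the other muscle-type oxidase subunit, read 6.39, 6.45 and 6.77 in control, 6.55, 6.51 and 6.34 with ALA, 6.28, 6.47 and 6.29 with the inhibitor, and 6.39, 5.93 and 6.38 with both. The groups overlapped in every comparison of treatments, and the largest difference was -0.23 for both against ALA (limma unadjusted p = 0.148). Of the transcriptional determinant Prdm16, group means ran from 4.25 ± 0.27 with the inhibitor to 4.45 ± 0.27 with ALA, with 4.42 ± 0.16 in control and 4.38 ± 0.12 with both (n = 3 each). Cidea, the lipid droplet protein, was at 5.14 ± 0.15 in control, 4.99 ± 0.33 with ALA, 5.08 ± 0.24 with the inhibitor and 5.20 ± 0.05 with both. With all 12 arrays the groups of both genes overlapped in each comparison of treatments. The Cidea value turned on the ALA array of passage 7, which read 5.37 where the ALA arrays of passages 6 and 8 read 4.81 and 4.79. Those 2 arrays lay below every control array (5.06, 5.30 and 5.04) and every array with both agents (5.15, 5.20 and 5.25). The share of all clusters that part in this way, 2 arrays against 3, is not given here. With all arrays Cidea differed by -0.15 for ALA against control and by 0.21 for both against ALA. Without the passage 7 array these values were -0.33 (limma unadjusted p = 0.0407, adjusted p = 1) and 0.40 (unadjusted p = 0.019, adjusted p = 0.992). Prdm16 was at 0.03 for ALA against control and -0.07 for both against ALA, and both turned without that array, to -0.10 and 0.07.

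**Figure D2:**
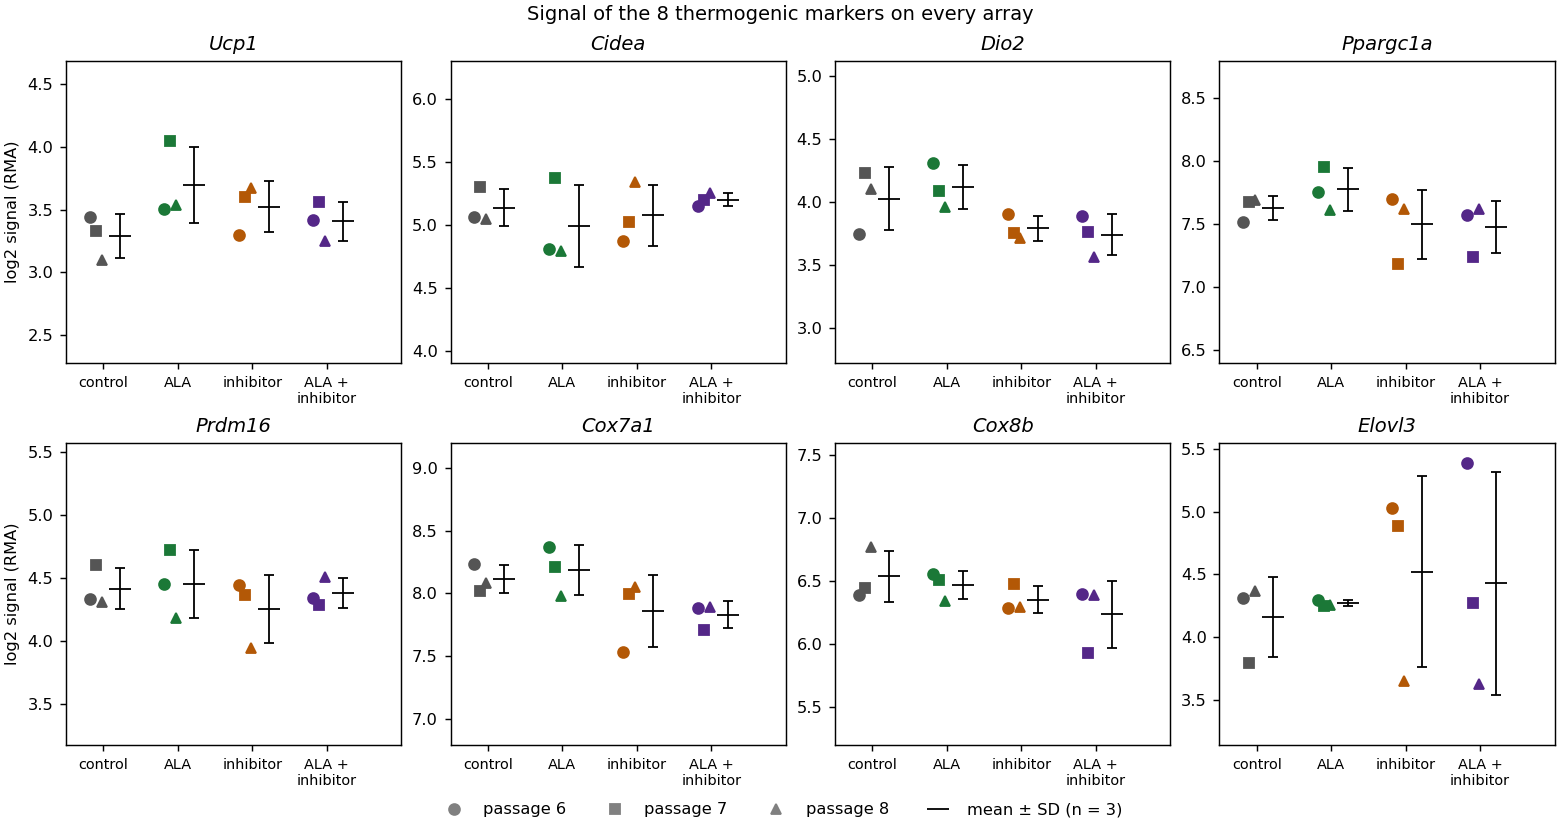
Log2 signal (y axis, each panel spanning the same number of log2 units) of each of the 8 genes on every array by treatment (x axis), with the marker shape giving the passage and the bar the mean ± SD of 3 arrays. Ucp1 with ALA at passage 7 (4.04) is the highest Ucp1 array, and Elovl3 with inhibitor spreads from 3.63 to 5.38.

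Counted over the 8 genes, 6 were higher and 2 lower with ALA than in control, with a median log2 difference of 0.08 against 0.01 over all clusters. After quantile normalization 5 were higher, Prdm16 being the one that turned. At an unadjusted p under 0.05 there was 1 of 8 (Ucp1), where 3.41% of all clusters reached it. The arrays of the 2 groups did not overlap for 1 of 8, against 6.77% of all clusters. Without the ALA array of passage 7, 5 were higher and 3 lower (median 0.06), and the 1 gene at that p was Cidea in place of Ucp1. With the inhibitor 2 were higher and 6 lower than control (median -0.15), 0 of 8 reached that p where 4.32% of clusters did, and 0 of 8 did not overlap, against 10.8%.

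With both agents against ALA, 2 of the 8 genes were higher and 6 lower. The median was -0.26, against -0.02 over all clusters, and 3 were higher after quantile normalization, again through Prdm16. An unadjusted p under 0.05 was reached by 2 of 8 (Dio2 and Cox7a1), against 7.27% of clusters, and arrays did not overlap for these 2 of 8, against 11.6%. Leaving out the ALA array of passage 7, 3 were higher and 5 lower (median -0.16), and the 2 genes at that p were Dio2 and Cidea. With both against the inhibitor, 2 were higher and 6 lower (median -0.04), with 0 of 8 beside 3.56% at that p and 0 of 8 beside 9.73% without overlap. The largest of these differences was 0.13, for Prdm16, with the smallest unadjusted p at 0.453. The interaction was negative for 6 and positive for 2, with 1 of 8 (Ucp1) at that p beside 3.42% of clusters. ALA against control and inhibitor against control share the control arrays, and both against ALA shares the ALA arrays with the first.

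**Figure D3:**
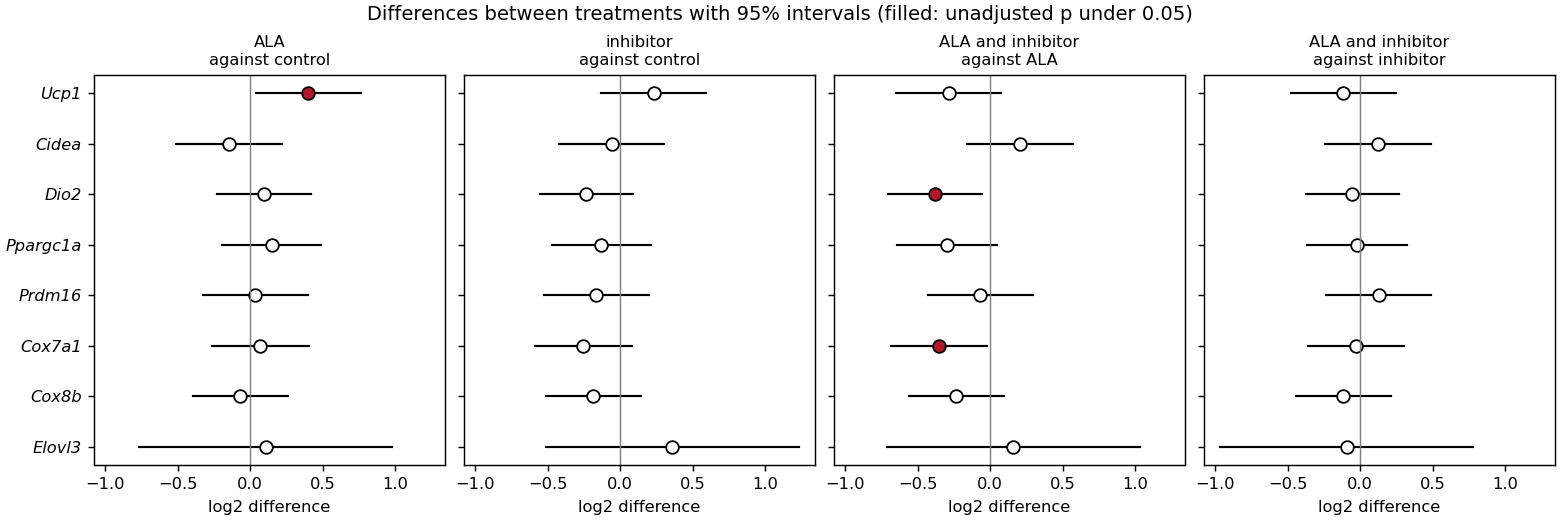
Log2 difference (x axis) with its 95% interval from limma for the 8 genes (y axis) in 4 comparisons of treatments, filled where the unadjusted p was under 0.05. The filled points are Ucp1 at 0.40 for ALA against control, and Dio2 at -0.38 and Cox7a1 at -0.35 for both agents against ALA, and the intervals of Elovl3 are the widest.

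Elovl3, the elongase of saturated and monounsaturated fatty acids, differed most between arrays of all the thermogenic markers. It read 4.32, 3.80 and 4.37 in control and 4.30, 4.25 and 4.26 with ALA. With the inhibitor it read 5.03, 4.89 and 3.65, and with both agents 5.38, 4.27 and 3.63. Arrays without inhibitor stayed within 3.80 to 4.37, whereas arrays with it were highest at passage 6 and lowest at passage 8. Its SD over the 12 arrays was 0.535, higher than for 99.6% of clusters, while the other 7 genes had SDs of 0.198 to 0.241 beside a median of 0.209. The treatment means were within this spread of each other, with a difference of 0.36 (SE 0.40) for inhibitor against control.

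By passage, Elovl3 averaged 4.76 ± 0.54, 4.30 ± 0.45 and 3.98 ± 0.39 at passages 6, 7 and 8 (n = 4 arrays each, 1 per treatment). Passage 8 against passage 6, with treatment in the model, gave -0.78 (SE 0.30, 95% interval -1.45 to -0.11), with a limma p of 0.027 unadjusted and 0.26 adjusted. It was -0.51 without the passage 6 array with both agents (unadjusted p = 0.118), -0.53 without the passage 8 inhibitor array (unadjusted p = 0.113) and -0.56 without the passage 8 array with both agents (unadjusted p = 0.111).

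Elovl3 was then set out by passage with and without the inhibitor. With inhibitor the means over the ALA and no-ALA arrays were 5.21, 4.58 and 3.64 at passages 6, 7 and 8, and without it 4.31, 4.03 and 4.32 (n = 2 each). The inhibitor difference was 0.90 at passage 6, 0.55 at passage 7 and -0.67 at passage 8, and at none of the 3 passages did the arrays with and without it overlap. With 2 arrays against 2 such separation was common, as it held for 38.6%, 48.1% and 33.4% of all clusters at passages 6, 7 and 8, and for 6.57% at all 3. At passage 7 the margin was narrow, 4.27 with both agents against 4.25 with ALA. A separation that turned direction between 2 passages was found in 3 of 48 comparisons of the 8 genes, beside 5.19% of such comparisons over all clusters. The change between passages 6 and 8 was -1.57 (SE 0.32) in a limma model with ALA and the product of inhibitor and passage, a comparison chosen after these values were seen. The p was 0.000877 unadjusted and 1 adjusted over all clusters. For that change an adjusted p under 0.05 was reached by 0% of clusters and an unadjusted one by 4.64%, and by 2 of the 8 genes, the other being Cox7a1 at 0.54 (unadjusted p = 0.0476). For the change between passages 6 and 7 in the same model the shares were 0.00452% (1 cluster) and 7.37%. Of the 8 genes 1 reached the unadjusted p there, Ppargc1a at -0.60 (unadjusted p = 0.0123, adjusted p = 0.675), while Elovl3 was at -0.34 (unadjusted p = 0.31). Leaving out each array in turn moved the Elovl3 value between -1.78 and -1.36.

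**Figure D4:**
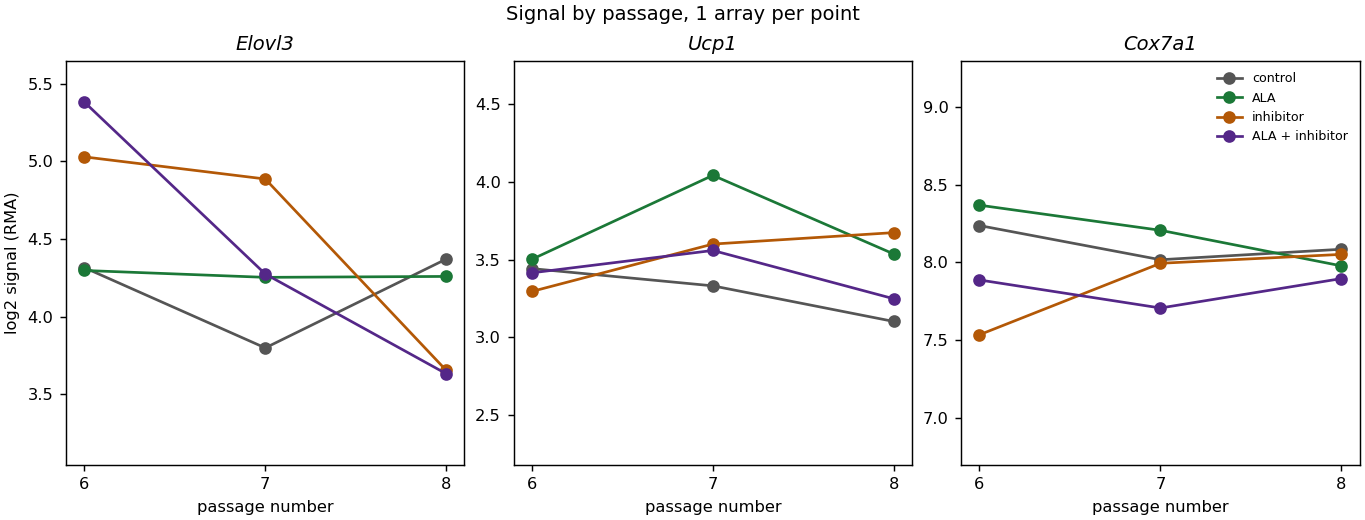
Log2 signal (y axis) of Elovl3, Ucp1 and Cox7a1 against passage number (x axis), with 1 array per point and a line per treatment. Elovl3 with inhibitor goes from 5.03 and 5.38 at passage 6 to 3.65 and 3.63 at passage 8, while the control and ALA lines of Elovl3 stay between 3.80 and 4.37.

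Across all clusters the passage comparisons gave calls. Each passage was sampled once per treatment, so passage number cannot be told apart from the culture run. The adjusted threshold was met by 1.91% of clusters for passage 8 against passage 6, 0% for passage 7 against 6 and 0.864% for passage 8 against 7, and by 0 of the 8 genes in each. An unadjusted p under 0.01 was met by 5.95%, 2.09% and 7.08% of clusters in the same order and by 0 of 8 in each. At p under 0.05 the shares of all clusters were 14.6%, 9.29% and 19.9%, and the members were 1 (Elovl3), 0 and 0 of 8. The 4 arrays of one passage lay wholly apart from those of the other for 12.5%, 4.27% and 11.2% of clusters and for 0 of 8 members in each. In every one of these comparisons 3 members were higher and 5 lower. The smallest p for passage 7 against 6 belonged to Cidea, at 0.25 (limma unadjusted p = 0.0902), and for passage 8 against 7 to Prdm16, at -0.26 (unadjusted p = 0.0746), followed by Ucp1 at -0.24 (unadjusted p = 0.0883). Leaving out 1 array at a time moved this Cidea value between 0.12 and 0.34 and this Ucp1 value between -0.36 and -0.15. Both were smallest in size without the ALA array of passage 7.

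The variation of each gene over the 12 arrays was split into a part between treatments, a part between passages and the rest. Treatment held 53.5% of the sum of squares of Dio2, 50.0% of Cox7a1, 41.5% of Ucp1, 36.6% of Cox8b and 35.0% of Ppargc1a, beside a median of 25.3% over all clusters. It held 15.5% for Cidea, 15.5% for Prdm16 and 7.44% for Elovl3. Passage held 38.8% for Elovl3, 31.0% for Prdm16 and 28.0% for Cidea, but 0.262% for Cox7a1, beside a median of 23.4%. The share left over was 35.9% for Ucp1 and 39.3% for Dio2, and between 49.8% and 58.1% for the other 6 genes.

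Correlations among the thermogenic markers were mixed. Over the 12 arrays, which share treatments and passages, 21 of the 28 pairs of genes had a positive Pearson r, with a median of 0.096. The highest r was 0.605, between the oxidase subunits Cox7a1 and Cox8b, followed by 0.556 for Dio2 and Ppargc1a and 0.51 for Dio2 and Cox8b. With the mean of each treatment taken out, these pairs were at 0.401, 0.248 and 0.22. The lowest was -0.447, for Cidea and Elovl3. Without the ALA array of passage 7, 14 of 28 were positive and the median was -0.007. Ucp1 and Cidea, both used as brown fat markers, had an r of 0.32, and 0.017 without that array. With treatment means taken out their r was 0.759, the highest of the 28 pairs, a value that includes that array. These are descriptions of 12 arrays.

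For the 3 genes above the array median, the most similar genes over the 12 arrays were sought among 10028 named genes also above it. They were Cyp2u1 (r = 0.897), Atad3a (0.889) and Imp4 (0.876) for Ppargc1a, Atg101 (0.886), Cacng7 (0.869) and Rasd1 (0.852) for Cox7a1, and Efhd2 (0.824), Ube4b (0.805) and Igf2bp3 (0.798) for Cox8b. With 12 arrays and this many candidates, such values describe likeness only.

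Close relatives of the 8 genes were also measured, and their signals are given without comparison between clusters. Cox7a2 and Cox8a, the widely expressed forms of the oxidase subunits, had mean signals of 9.82 and 11.84, and Cidec, the white fat member of the CIDE family that enlarges lipid droplets, 12.09. Cideb was at 6.37, Dio1 at 5.79, Dio3 at 3.30, Ucp3 at 6.08 and Ppargc1b, the relative of PGC-1alpha, at 8.79. Of 18 measured relatives, 11 were higher and 7 lower with ALA. Elovl2, a polyunsaturated fatty acid elongase, differed by 0.60, Cideb by -0.39 and Elovl5 by -0.26, each with a limma adjusted p of 1. With both agents against ALA, 8 were higher and 10 lower, with Cox8c at -0.51 (adjusted p = 0.653).

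The rest of the thermogenic pathway showed 0 genes at an adjusted p under 0.05 in any comparison of treatments. Signalling upstream was covered by 9 of 12 genes. The 3 beta-adrenergic receptors were not analysed here. With the inhibitor 3 of the 9 were higher and 6 lower, and the count turned to 6 higher with arrays centred on their medians. Gpr3, a receptor that raises cyclic AMP without a ligand, had the smallest p, with a difference of -0.55 (limma unadjusted p = 0.00707, adjusted p = 0.998). Of 17 transcriptional regulators 7 were higher and 10 lower with ALA, and 4 were higher and 13 lower with the inhibitor (7 higher after centring). Rxrg, a retinoid X receptor, was at -0.53 with the inhibitor against control (adjusted p = 0.99) and at -0.57 with both against ALA (adjusted p = 0.653). Of 8 repressors of the programme 2 were higher and 6 lower with ALA, with the corepressor Nrip1 at -0.45 and Zfp423, a brake on beige conversion, at 0.21 (adjusted p = 1 for each). The Nrip1 difference came from the ALA array of passage 7, at 7.10 where those of passages 6 and 8 were at 8.55 and 8.57. Without it Nrip1 was at 0.04 and Zfp423 at 0.12, and 5 of the 8 repressors were higher. Zfp423 was at -0.26 with both against ALA (adjusted p = 0.684), and at -0.17 without that array.

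Of 24 further beige and brown lineage markers, 17 were higher and 7 lower with ALA, with a median difference of 0.13, and 0 had an unadjusted p under 0.05, which 3.41% of all clusters had. Leaving out the ALA array of passage 7 made this 11 higher and 13 lower (median -0.01). With both agents against ALA 5 were higher and 19 lower (median -0.13), where 46.6% of all clusters were higher with a median of -0.02, and 3 of the 24 were lower at that p, which 7.27% of clusters had. Without the same array 6 were higher and 18 lower (median -0.06), with 1 at that p. These were Nrg4, a growth factor secreted by brown fat, at -0.52, the fatty acid transporter Slc27a1 at -0.39 and Zic1, a brown fat transcription factor, at -0.62, with limma adjusted p-values of 0.653, 0.684 and 0.684. Zic1 read 7.46 on the ALA array of passage 7 and 6.10 and 6.38 on those of passages 6 and 8, and without the first its difference was -0.21. Nrg4 was then at -0.42 and Slc27a1 at -0.31. Nrg4 was also at -0.65 with the inhibitor against control (adjusted p = 0.828). Of 9 white fat selective markers, 8 were higher with ALA and 8 lower with both against ALA, though 3 were higher in the latter comparison without the ALA array of passage 7, and 5 once arrays were centred on their medians, where the beige and brown list still had 5 of 24 higher. Of 13 genes of other heat-producing routes 9 were higher and 4 lower with ALA, and 6 higher and 7 lower without the passage 7 array. Gatm and Gamt, the enzymes of creatine synthesis, were at 0.49 and 0.19 (adjusted p = 1 for each; 0.33 for Gatm without that array), and Gamt was at -0.34 with both against ALA (adjusted p = 0.664).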

How the data were processed

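The authors deposited log2 signals by transcript cluster and array. Per the submitters' processing notes these came from RMA, a method of background correction, normalization between arrays and probe summary that compresses differences between dim clusters. Its version and the genome build are not given in the sources used here. All 22104 clusters on 12 arrays entered the fits unfiltered. Arrays give no read depth, and their number limits the precision. Symbols came from the array's annotation held by GEO, which named 19509 clusters. The cluster with the highest mean stood for a gene.

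limma 3.58.1 in R 4.3.3 fitted 1 coefficient per treatment, and treatment plus passage for the passage comparisons, with eBayes, two-sided p-values and Benjamini-Hochberg adjustment over all clusters. The script was tested on simulated data. Samples were grouped by their labelled treatment and passage. The 8 members and the 12 other gene lists were chosen with earlier results of these data known. All members were named, and of each other list up to 4 genes with the smallest p per comparison, of which part is printed. Passage numbers were checked for pairing by correlating same-passage deviations from the group means, and 13 of 18 correlations exceeded 0.1. Alternatives were a replicate block, array weights, an intensity trend, quantile normalization, median centring, a filter on dim clusters and leaving out arrays or passages. List genes without a matching symbol were not analysed here.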

Additional observations from a re-analysis of the deposited data

Results flagged for a closer look

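Among the 8 thermogenic markers, 24 groups of 4 arrays of the same passage were examined for an array far from the other 3, and 2 had one. For Ppargc1a at passage 8 the control array lay highest, with a gap to its neighbour of 0.904 of the whole range. That range was small in log2 units, from 7.61 to 7.69. For Cox8b at passage 7 the array with both agents lay lowest, with a gap of 0.892 of the range, which ran from 5.93 to 6.51. Both exceed Dixon's critical value for 4 arrays, which chance passes in about 1 in 20 groups of like arrays. Here each of the 4 arrays had another treatment. The share over all clusters is not given, so the count of 2 is not read as a result about these genes.

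The difference between arrays with and without an agent was set side by side between passages in 48 comparisons. In 3 of them, both arrays with the agent lay above both without it in one passage and below them in the other, beside 5.19% of such comparisons over all clusters, so a count of 3 is near that background. All were inhibitor differences. For Elovl3 the difference at passage 8 minus that at passage 6 was -1.57, and minus that at passage 7 it was -1.23. For Cidea the difference at passage 8 minus that at passage 7 was 0.61. The Elovl3 change from passage 7 to 8 and the Cidea change were not tested.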

How the results depend on the processing

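The 64 values (8 genes in 8 comparisons) were recomputed 1272 times under the alternatives. Of these results 1169 kept their direction and 103 turned it, 68 of these when 1 array was left out. Many of the recomputations could not turn a direction. In a comparison of 2 treatments the block, the intensity trend and the filter on dim clusters return the same difference. Leaving out an array of a group not compared does so too. The count of kept directions is therefore not a measure of stability. For 32 values the direction held under all alternatives, among them Ucp1 for ALA against control and for the interaction, Dio2 and Cox7a1 for both agents against ALA, and Elovl3 for passage 8 against 6. No gene passed the adjusted threshold under any alternative, with a smallest limma adjusted p of 0.115, and the causes of the turns were not tested. With the replicate block, the p for Ucp1 in ALA against control was 0.0224 (limma adjusted p = 0.901). With 1 array per treatment in each passage, the block can change the p of a treatment comparison but not its difference, so it could turn no direction. It brought no gene past the threshold. No member had a second cluster, so that alternative gave no value, and the median of named clusters moved no member to the other side. Few arrays and signals near the floor limit all of these values.

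Values that turned are given by setting. Without passage 7 in every group these were in ALA against control Prdm16 at -0.0054 and Elovl3 at -0.065, in inhibitor against control Cidea at 0.053, Ppargc1a at 0.052 and Elovl3 at -0.0022, in both against ALA Prdm16 at 0.11, in both against inhibitor Cox7a1 at 0.10, Cox8b at 0.10 and Elovl3 at 0.17 and in the interaction Cox7a1 at 0.087, Cox8b at 0.23 and Elovl3 at 0.23. Without passage 6 these were in ALA against control Dio2 at -0.14 and Prdm16 at -0.0078, in inhibitor against control Cidea at 0.0082, in both against ALA Elovl3 at -0.30, in both against inhibitor Ppargc1a at 0.031 and in the interaction Dio2 at 0.065. Without passage 8 these were in ALA against control Cox8b at 0.11, in both against inhibitor Ucp1 at 0.039, Prdm16 at -0.090 and Cox7a1 at 0.032 and in the interaction Prdm16 at -0.21. With array weights these were in ALA against control Prdm16 at -0.092, in both against ALA Prdm16 at 0.017, in both against inhibitor Ppargc1a at 0.037, in passages 8 against 6 Ppargc1a at -0.021 and Cox8b at -0.0066 and in passages 7 against 6 Dio2 at 0.029. After quantile normalization these were in ALA against control Prdm16 at -0.009, in both against ALA Prdm16 at 0.010, in passages 8 against 6 Ppargc1a at -0.023, in passages 7 against 6 Cox7a1 at 0.021 and in passages 8 against 7 Cox7a1 at -0.042. After median centring these were in passages 8 against 6 Cox7a1 at 0.0017.

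Leaving out 1 array at a time turned the following. For ALA against control the range was -0.045 to 0.20 for Dio2, -0.10 to 0.17 for Prdm16, -0.021 to 0.17 for Cox7a1, -0.14 to 0.048 for Cox8b and -0.074 to 0.21 for Elovl3. For inhibitor against control the range was -0.19 to 0.045 for Cidea and -0.23 to 0.029 for Ppargc1a. For both against ALA the range was -0.20 to 0.065 for Prdm16 and -0.32 to 0.56 for Elovl3. For both against inhibitor the range was -0.13 to 0.033 for Dio2, -0.18 to 0.10 for Ppargc1a, -0.024 to 0.23 for Prdm16, -0.19 to 0.066 for Cox7a1, -0.19 to 0.038 for Cox8b and -0.57 to 0.31 for Elovl3. For the interaction the range was -0.059 to 0.23 for Prdm16, -0.16 to 0.11 for Cox8b and -0.68 to 0.20 for Elovl3. For passages 8 against 6 the range was -0.14 to 0.084 for Ucp1, -0.072 to 0.10 for Ppargc1a, -0.17 to 0.10 for Cox7a1 and -0.050 to 0.13 for Cox8b. For passages 7 against 6 the range was -0.17 to 0.068 for Dio2, -0.19 to 0.062 for Cox7a1 and -0.16 to 0.060 for Cox8b. For passages 8 against 7 the range was -0.24 to 0.013 for Cidea, -0.072 to 0.13 for Cox7a1 and -0.019 to 0.20 for Cox8b. For the inhibitor difference between passages 8 and 6 the range was -0.082 to 0.60 for Ucp1, -0.59 to 0.062 for Dio2, -0.15 to 0.083 for Ppargc1a, -0.31 to 0.27 for Prdm16 and -0.28 to 0.12 for Cox8b.

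Counts of clusters called moved in the passage comparisons. For passage 8 against 6 the 423 became 690 with array weights, 1163 with an intensity trend and 719 without the dimmest 30%, and ran from 140 to 593 without 1 array. For passage 8 against 7 the 191 became 333, 1163 and 517, and ran from 2 to 148. For passage 7 against 6 the 0 became 10 with the trend. The inhibitor difference between passages was added after seeing the data, as were its alternatives.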
